A study of Homo sapiens with 2 samples.

Results

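CDH13 encodes T-cadherin, a cadherin held at the cell surface by a lipid anchor, and the plus strand of this gene carried 132 of the 54373 hnRNPM crosslink sites deposited for HMLE cells. The gene was taken as chr16:82660399-83834245 (GRCh37, 1-based), a length of 1174 kb, and a site belonged to it when its middle lay inside. CDH13 was chosen by its uneven sites, gaps and heights in this same list, so these values describe it and no test is attached to them. The question was how the sites of the first 400 kb (chr16:82660399-83060398) compared with those of the remainder.

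The binding of hnRNPM was mapped in HMLE, an immortalised and established epithelial line from the human breast, by iCLIP, in which ultraviolet light fixes a protein to the RNA it touches and reverse transcription tends to stop at the fixed base. The 2 libraries, biological replicates 1 and 2, came from wild-type cells given DMSO and precipitated with an antibody against hnRNPM. They formed 1 group, and there was no other group to compare. The deposited list gave 1 value per site and no value per library, so no spread between replicates could be given, and their depths are not known here. RNA levels were not measured alongside: the amount of CDH13 RNA and the binding per RNA molecule cannot be told apart, and the cell line could not be checked against markers.

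T-cadherin lacks the cytoplasmic tail through which classical cadherins reach the actin skeleton. It binds other T-cadherin molecules, adiponectin and low-density lipoprotein, and its gene is often silenced by promoter methylation in breast tumours. hnRNPM is an abundant nuclear RNA-binding protein that takes part in the choice of exons and binds GU-rich RNA, much of it in introns. The gene is almost all intron. In the GRCh38 annotation of GENCODE release 29 (gene ENSG00000140945.16), the transcript CDH13-201 had 15 exons with 2722 nt in all, 0.233% of its span of 1168 kb, and 5 of its 14 introns were longer than 100 kb. Other transcripts of the gene in that annotation spanned 1168 and 1174 kb, and shorter ones spanned 554, 554 and 233 kb. These are lengths only. Which of these transcripts the cells made was not tested. Whether shorter transcripts bear on the difference between the first 400 kb and the remainder was not tested either. The sites are on GRCh37, no position was compared between the builds, and the exon or intron that holds a given site was not determined. Sequence at the sites was not analysed here.

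All 132 sites were 21 nt wide, and together they were 15.8% of the 837 sites on the plus strand of chromosome 16. The minus strand held 0 sites within the gene, and its nearest sites lay 463 kb before the start and 258 kb beyond the end. On the plus strand the gene stood alone. The last site before it lay 937 kb from the start and the next site after it 903 kb from the end. The first site, chr16:82663300-82663320, was 2.91 kb into the gene, and the last, chr16:83765247-83765267, was 69.0 kb before the end.

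The first 400 kb held most of the sites. It had 109 sites and the remainder 23, so that 82.6% of the sites (exact 95% binomial interval 75.0 to 88.6) lay in 34.1% of the length. The first 400 kb had 27.3 sites per 100 kb and the remainder 2.97, a ratio of 9.17 (5.81 to 15.1). These intervals treat sites as independent and cover counting error only. Sites of 1 gene share their RNA and both libraries, and they are not replicates. The boundary falls in an empty stretch: the site just inside it, 363 kb from the start, had a height of 9, and the site just outside, 449 kb from the start, one of 17.

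**Figure D1:**
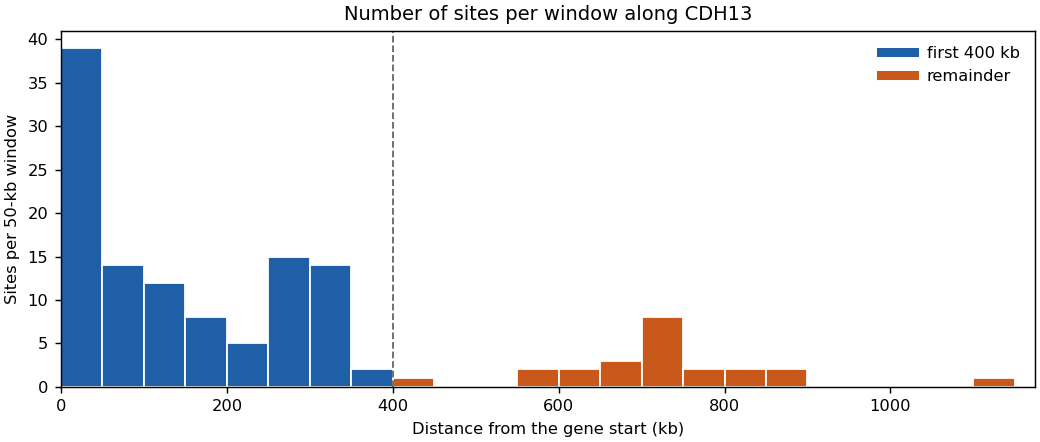
Number of sites (vertical axis) in successive windows of 50 kb from the CDH13 start (horizontal axis, kb; the final window is shorter), with a dashed line at 400 kb. The first window holds 39 sites, the windows up to 350 kb hold 5 to 15, and no window of the remainder holds more than 8.

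The profile had 3 levels rather than a steady slope. The first 50 kb alone held 39 sites (29.5% of the gene's sites, 21.9 to 38.1), and the next windows of 50 kb held 14, 12, 8, 5, 15, 14 and 2. Counted by 100 kb, the first 400 kb had 53, 20, 20 and 16 sites in order, and the following 100 kb had 1. Without the first 50 kb, the rest of the first part still had 20 sites per 100 kb, 6.73 times the remainder (4.15 to 11.3), a setting added after the data were seen.

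Beyond 400 kb the sites were thinly spread, with 1 denser place. From 700 to 800 kb there were 10 sites, 8 of them in the window of 700 to 750 kb, whose heights in order were 14, 8, 11, 15, 10, 8, 6 and 15. The remaining 13 sites were spread over the rest, with none from 900 to 1100 kb. Of the 24 windows of the gene, 17 held a site, and 5 held 10 or more, all 5 in the first 400 kb. Over the whole list, 13.9% of the 11185 windows of 1 strand with a site held 10 or more, with a median of 3, and 7 windows of that grid held 39 or more. The grid of the list began at the chromosome start and not at gene starts, and CDH13 was chosen for such windows, so its share is given beside the list's as a description.

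The tallest sites also lay near the start. Height is the whole number that the authors deposited as the score of a site, read here as the number of reverse transcription stops. The 109 sites of the first 400 kb had a median height of 11 (order-statistic interval 10 to 13, quartiles 8 and 16, range 6 to 94), and the 23 sites of the remainder had one of 8 (8 to 14, quartiles 7.5 and 14.5, range 6 to 19). The intervals of the medians overlapped. The lower ends of both ranges were equal, and they parted at the top: 16 sites of the first 400 kb (14.7%) reached a height of 20 and none of the remainder did, against 19.8% in the whole list, whose median height was 11.

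**Figure D2:**
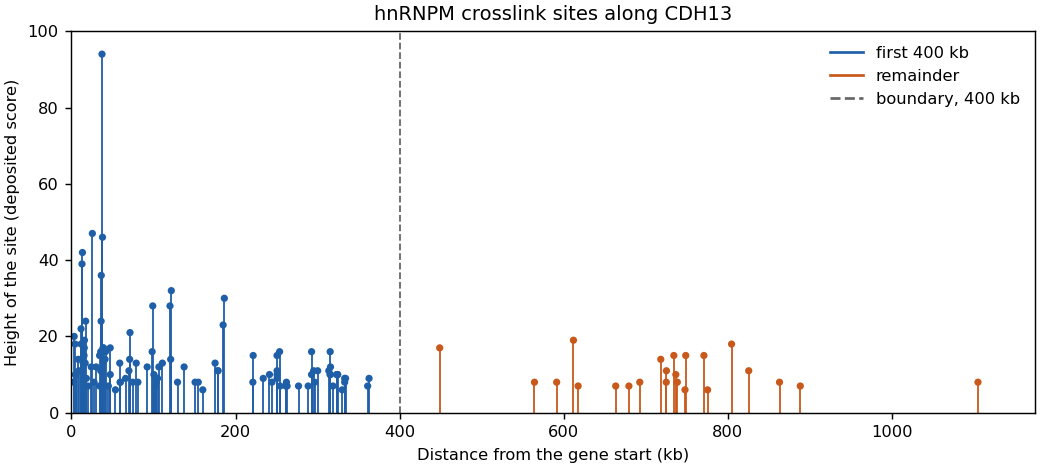
Height of each of the 132 sites (deposited score, vertical axis) against its distance from the CDH13 start (kb, horizontal axis); 1 line and point per site, with a dashed line at 400 kb. The heights from 28 to 94 lie no farther than 186 kb from the start, and the tallest site beyond 400 kb has a height of 19.

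The tallest site of the gene was chr16:82697693-82697713, 37.3 kb from the start, with a height of 94, or 67.1 times the height expected at its level of tags according to the authors' deposited value. It ranked 217 in the list. The second, chr16:82685914-82685934, had a height of 47, and the next, chr16:82698266-82698286, one of 46. The last of these lay 573 nt downstream of the tallest. The next were a pair at chr16:82673836-82673856 and chr16:82673322-82673342, with heights of 42 and 39, and a site of 36 at chr16:82696797-82696817. These 6 sites lay in the first 50 kb. The other 4 of the 10 tallest lay between 99.1 and 186 kb from the start: chr16:82782152-82782172 (height 32), chr16:82846760-82846780 (height 30), and 2 sites of height 28 at chr16:82759521-82759541 and chr16:82780541-82780561. Together the 10 tallest accounted for 23.3% of the gene's summed height, 1810.

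Sites farther from the start tended to be lower, and the relation was weaker without the first 50 kb. Across the 132 sites, which share their libraries, Spearman's rho between height and distance from the start was -0.387. It was -0.408 within the first 400 kb, -0.178 from 50 to 400 kb (70 sites) and -0.071 in the remainder. The first 50 kb had a median height of 15 (12 to 18) and held 42.4% of the summed height, and the stretch from 50 to 400 kb had a median of 10 (9 to 11).

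The expected height, which the authors gave once per tag cluster, followed the same course. Its median was 0.93 in the first 50 kb, 0.42 from 50 to 400 kb and 0.38 in the remainder (0.51 in the list). Divided by this value, heights had overlapping intervals in both parts: the median quotient was 23.0 (20.8 to 24.7) in the first 400 kb and 26.1 (20 to 33.3) in the remainder, and 23.7 in the list. Of the 17 CDH13 sites with the smallest deposited p-value, 1e-100, 15 were in the first 400 kb, which held 82.6% of all the gene's sites.

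Neighbouring sites lay much farther apart in the remainder. The median gap from a site to the next one downstream was 1.44 kb in the first 400 kb (109 gaps, interval 0.896 to 2.28 kb, quartiles 0.555 and 4.15 kb) and 18.3 kb in the remainder (22 gaps, 5.69 to 27.0 kb, quartiles 5.95 and 26.7 kb), a ratio of 12.7. The ratio depended on the settings: with the boundary at 300 kb the medians were 1328 and 6197 nt, a ratio of 4.67, and among the upper 50% of the list by height it was 19.6. Without the first 50 kb the median of the first part was 2.72 kb. Gaps under 1 kb made up 42.2% of the gaps of the first 400 kb (46 gaps) and 9.09% of those of the remainder (2 gaps). Gaps over 10 kb made up 9.17% (10 gaps) and 59.1% (13 gaps).

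**Figure D3:**
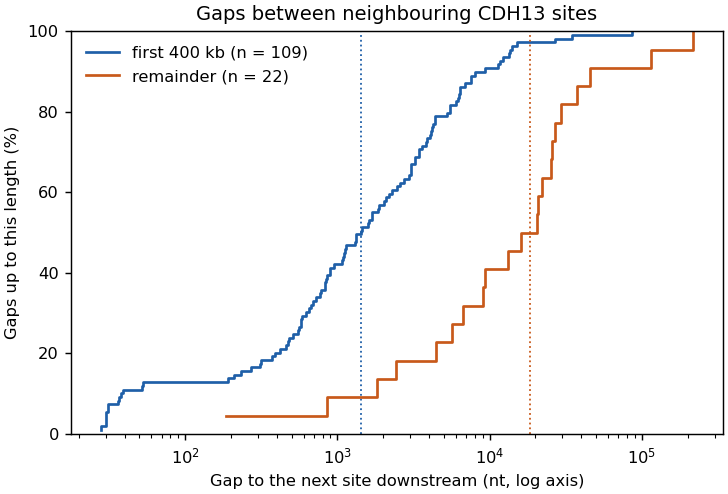
Share of gaps (vertical axis, %) up to a given length (horizontal axis, nt, log scale) for the 109 gaps that start in the first 400 kb and the 22 that start in the remainder; dotted lines mark the medians. The curve of the remainder lies to the right of the other throughout, with medians of 1436 and 18280 nt, and only the first part has gaps under 100 nt.

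The 5 longest gaps covered 501 kb, or 42.7% of the gene. The longest, of 217 kb, ran from 888 to 1105 kb and separated the last site from all others. The next, of 115 kb, lay between 449 and 564 kb. Another, of 86.1 kb, crossed the boundary between 363 and 449 kb. The fourth (45.8 kb) and the fifth (37.5 kb) lay in the remainder, starting at 618 and 825 kb.

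In the first 50 kb, sites were often grouped in 1 tag cluster, the unit of joined tags named with each site: 45.0% of the 20 clusters there held 1 site, against 76.9% of the 52 clusters from 50 to 400 kb. The 109 sites of the first 400 kb fell in 72 clusters, of which 68.1% held 1 site, while the 23 sites of the remainder fell in 22 clusters, of which 95.5% did (76.7% in the list). All 8 clusters with 3 or more sites were in the first 400 kb, which held 72 of the gene's 94 clusters with a site. The fullest, chr16:82675816-82677797, held 5 sites with heights of 15, 17, 19, 13 and 24 in order. The cluster at chr16:82697693-82698936 held the tallest site, and its heights fell along the RNA from 94 to 46 and 17. In the cluster at chr16:82696102-82696817 they rose instead, from 11 to 16, 24 and 36. The cluster at chr16:82672152-82673856 had heights of 22, 18, 39 and 42, with the taller pair downstream. The cluster at chr16:82780541-82782172 had heights of 28, 14 and 32, and that at chr16:82719296-82720105 had 13, 8 and 8.

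In 2 clusters the sites followed each other at short, near-equal steps. At chr16:82910977-82911100, 251 kb from the start, 4 sites lay 36, 28 and 39 nt apart, with heights of 15, 11, 10 and 9 from upstream to downstream. At chr16:82975761-82976172, 315 kb from the start, 3 sites lay 38 and 37 nt apart with heights of 16, 10 and 10, and another of height 12 followed after 316 nt. In all, 14 pairs of neighbours were 26 to 59 nt apart, every one in the first 400 kb, where 109 of the gene's 131 gaps began. The list held 3249 such pairs among its 54373 sites. The upstream site was taller in 8 of the 14 CDH13 pairs, the downstream site in 2, and 4 were equal. Of pairs of unequal height this is 80.0%, beside 65.5% in the list, and the difference, which rests on 10 pairs, was not tested.

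The numbering of the authors' list gave a measure beyond the deposited sites. Tag clusters carry numbers that rise with position on each of the 46 chromosome strands, and sites carry running numbers that rise likewise. Only some of each are present in the list. The missing numbers were read as tag clusters without a deposited site, and as candidate sites left off the list; the sources used here do not define them. Each count below is the difference between the numbers at the first and the last site of a stretch.

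By this reading, tag clusters were spread from the first to the last site of CDH13, and deposited sites were not spread alike. From the first to the last site of the gene, 6341 cluster numbers passed in 1102 kb, or 5.75 per kb, which is 6.38 times the 0.902 per kb of the whole plus strand of chromosome 16. That strand includes long stretches without a site. In the 146 other long runs of sites, defined below, the median was 5.06 per kb (quartiles 4.58 and 5.41). The stretch from the last site before the gene to its first site had 0.755 per kb, and that from its last site to the next, which includes the final 69.0 kb of the gene, had 0.793. Within the gene, the sites of the first 400 kb spanned 1752 cluster numbers (4.87 per kb) and those of the remainder 3992 (6.09 per kb), a ratio of 0.800. The same stretches had 30.0 and 3.35 sites per 100 kb, a ratio of 8.95. A deposited site was thus present in 4.05% of the clusters passed in the first 400 kb and in 0.526% of those passed in the remainder, beside 0.825% over the list. These shares depend on how tags were joined into clusters, since tags that lie close together can count as 1 cluster. Similar cluster rates therefore do not show similar coverage by tags.

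**Figure D4:**
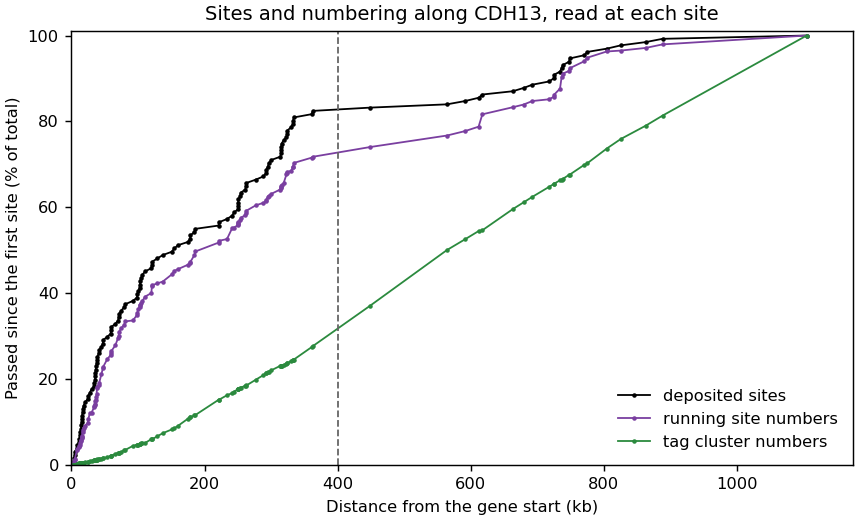
Share passed since the first CDH13 site (vertical axis, % of the total at the last site) of deposited sites, running site numbers and tag cluster numbers, read at each of the 132 sites against distance from the gene start (kb, horizontal axis), with a dashed line at 400 kb. The curves of sites and running numbers climb early and flatten, and that of cluster numbers, 6341 in all, climbs throughout. It rises by 2.16 per kb in the first 50 kb, 5.25 from 50 to 400 kb and 6.09 in the remainder.

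The long gaps held tag clusters too. The gap of 217 kb spanned 1183 cluster numbers and 10 running numbers, and the gap of 115 kb spanned 823 and 13. All 5 longest gaps had between 5.25 and 7.13 cluster numbers per kb. Over the list, gaps of more than 50 kb had a median of 1.08 per kb (quartiles 0.522 and 2.68), and 15.6% of the 6286 had at least 4, a limit set after the data were seen. All 3 CDH13 gaps of that length did. They lie inside the gene, and the gaps of the list were not limited in this way.

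Candidate sites by the running numbers lay between the other measures. There were 348 running numbers in the first 400 kb (96.7 per 100 kb) and 126 in the remainder (19.2 per 100 kb), a ratio of 5.03. Of these, 31.0% and 17.5% were deposited as sites, and 24.2% over the list.

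A cluster number counts clusters and not the tags in them. In the first 50 kb, where sites were densest, only 2.16 cluster numbers passed per kb, against 5.25 from 50 to 400 kb, and 19.8% of them held a site. The rate was 5.10, 5.44 and 5.72 per kb in the successive stretches of 100 kb that ended at 200, 300 and 400 kb. In the remainder it was 6.09. The list holds no tag counts. The expected height, which is tied to the level of tags, had a median of 0.48 (0.42 to 0.57) in the first 400 kb and 0.38 (0.26 to 0.46) in the remainder. Whether the depth of tags differed between the parts was not tested.

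CDH13 was last set beside other long runs of sites, defined as same-strand sites never more than 50 kb from the next and with none of the other strand between them, at least 20 sites and a span of at least 200 kb. No gene is named for the others, since no GRCh37 annotation was used here. CDH13 supplied 2 such runs, of 109 and 21 sites, split by its 2 gaps next to the boundary, and 146 others were found. The first CDH13 run lay within the range of the others: it had 30.3 sites per 100 kb (28 others had more, median 20.7), a median gap of 1382 nt (median of the others 1543 nt), a median height of 11 (12) and 4.87 cluster numbers per kb (5.06). Its sites leaned to the upstream end, with 57.8% in the first 34% of its span. The share was 44.4% in the median run, with quartiles of 34.6 and 55.1%, and 15.1% of the other runs reached 57.8%.

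The second CDH13 run lay at the edge of the range. It had 6.48 sites per 100 kb, fewer than each of the 146 others, whose lowest was 8.01, and its median gap of 14.7 kb was longer than that of each other run. Its 6.13 cluster numbers per kb were exceeded by 4 others. It held 23.8% of its sites in the first 34% of its span, so the lean to the upstream end in the first run was not found in the second. Over the 146 other runs, site density and cluster numbers per kb went in opposite directions (Spearman's rho -0.669, a description over runs that share their libraries). The second CDH13 run, with a high cluster rate and the lowest site density of all the runs, lay in the direction of this relation. CDH13 was chosen by its uneven sites and gaps, so these ranks are a description. They also hold only among runs as defined, which leaves out sparser stretches. A run needed at least 20 sites, and the second CDH13 run had 21. Over the list, windows of 50 kb with a site held a median of 3 sites.

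**Figure D5:**
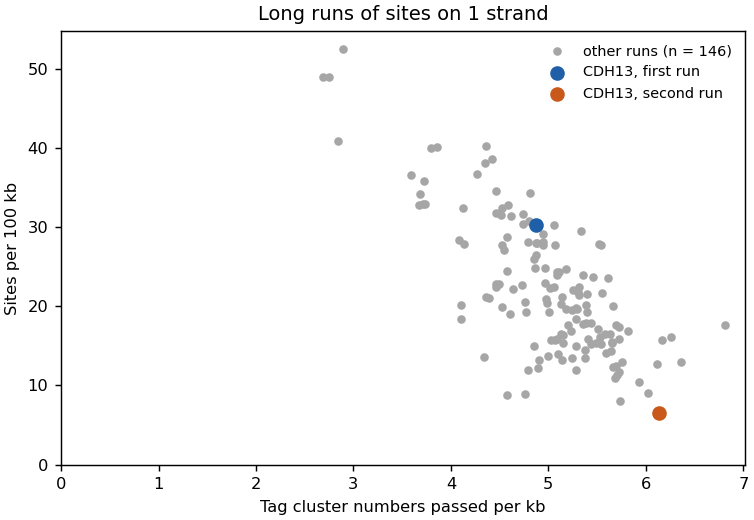
Sites per 100 kb (vertical axis) against tag cluster numbers passed per kb (horizontal axis) in long runs of sites on 1 strand; grey points are the 146 other runs and the large points the 2 CDH13 runs. The first CDH13 run, at 30.3 and 4.87, lies among the others, and the second, at 6.48 and 6.13, has the lowest site density of these runs.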

How the data were processed

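The iCLIP of hnRNPM in HMLE cells (2 libraries) was analysed from 1 deposited list of 54373 sites on GRCh37 (build per the submitters' processing notes). The authors' deposited score of each site, a whole number from 4 to 1969, equalled the value marked PH in its name and is called the height. The name also gave a running number, a tag cluster, an expected height (PH0) and a p-value. Aligner, site caller, treatment of duplicates and pooling of the libraries are not given in the sources used here, and the list was taken as pooled. How site calling treats regions of high and low tag depth could therefore affect every count.

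The gene's sites were taken by position and strand. A gap belongs to the part that holds its upstream site. Shares have exact (Clopper-Pearson) 95% intervals, density ratios the interval of the share, and medians order-statistic binomial intervals. No test was run. Named in the text are the 10 tallest sites, the 5 fullest windows of 50 kb, the 5 longest gaps, clusters of 3 or more sites, and the first and last site. The gene, the boundary and these lists were chosen with earlier results of these data known, and the numbering counts were added after the files were read. Other settings tried were boundaries at 300 and 500 kb, the upper 50% of the list by height, sites within 50 nt merged, whole intervals inside the gene, and tag clusters in place of sites. A list of other cadherin genes needs a GRCh37 annotation and was not run. Interval functions were tested on simulated data. Values were computed with pandas 2.3.3, scipy 1.17.1 and numpy 2.4.6 in Python 3.11.15.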

Additional observations from a re-analysis of the deposited data

How the results depend on the processing

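Of 31 alternative values, 27 fell inside the 95% interval given in the report, or within 1.5 times a reported count. The gene and the boundary were chosen with earlier results of these data known. Every alternative draws on the same sites, so none is independent of that choice. The site density ratio of the first 400 kb over the remainder stayed above 1 in all 6 alternatives, from 6.33 with tag clusters counted to 13.8 in the upper 50% of the list by height. That setting left 57 sites in the gene, all of height 12 or more. Ties at the list median of 11 were broken by position in the list, and the CDH13 sites of height 11 were left out. The median gap in the remainder was then 27934 nt, while that in the first 400 kb was 1422.5 nt. Leaving out a site joins the gaps on its sides, so gaps lengthen in part by construction. Of the sites kept, 87.7% were in the first 400 kb, so the median of the remainder rests on few gaps. Why the 2 parts moved differently was not tested. With the boundary at 300 kb the share of sites before it was 70.5%, by construction of a shorter first part, and the median gap beyond it was 6197 nt, the widest move of a gap, which stayed inside a wide interval (5693 to 27048 nt). Without the first 50 kb, a setting added after the data were seen, the median gap of the first part was 2720.5 nt. Merging sites within 50 nt removed 12 sites, and the whole-interval rule removed none. Leaving out a replicate was not possible because the list has no value per library. No paired analysis was possible because there was 1 group. Library depth is unknown here, so how many low sites of the remainder were missed cannot be stated.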
